A study of Mus musculus with 4 samples.

Results

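The guanylate-binding proteins described here are 8 mouse genes, Gbp2, Gbp3, Gbp4, Gbp5, Gbp6, Gbp7, Gbp8 and Gbp9, of 31053 genes counted. They were chosen by gene symbol, and each symbol matched 1 row of the count tables. Islets of adult male C57BL/6 mice (C57BL6/J in the study's methods) were pooled from 8 animals, divided into 4 samples and kept intact in culture for 6 h, either untreated or with IL-1β, IFN-γ or both cytokines. Each sample was then dissociated and gave 1 droplet-based single-cell RNA-sequencing (scRNA-seq) library. All groups therefore shared strain, sex and culture, the cells of the 8 mice were mixed within each library, and no difference between conditions has a replicate check. No test was run, and every interval given below is an exact or approximate 95% interval that covers counting error only.

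Guanylate-binding proteins are large GTPases that most cells make in response to interferons, IFN-γ above all. They bind and hydrolyze GTP, assemble on membranes, and gather on the vacuoles and surfaces of intracellular bacteria and parasites, where they take part in host defense and in the activation of inflammasomes. Genes that respond to IFN-γ often carry palindromic sites called GAS or sites of the ISRE type, the latter bound by the transcription factor IRF1, whereas IL-1β acts largely through NF-κB. In islets, these cytokines are used together to model the inflammatory setting of autoimmune diabetes.

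The 8 genes lie in a pair of clusters of the mouse genome (build GRCm38, GENCODE M21 annotation), and all are protein coding. On the plus strand of chromosome 3 are Gbp5 (chr3:142493978-142522344), Gbp7 (chr3:142530342-142550149), Gbp3 (chr3:142560026-142573209) and Gbp2 (chr3:142620602-142638008). On the minus strand of chromosome 5 are Gbp8 (chr5:105014150-105139540), Gbp9 (chr5:105077630-105139539), Gbp4 (chr5:105115767-105139586) and Gbp6 (chr5:105270702-105293698). The annotated spans of Gbp4, Gbp8 and Gbp9 overlap on the same strand. How the authors' counting assigned reads shared by overlapping or near-identical family members was not stated in the methods or labels, so the division of counts among those 3 genes, and between Gbp6 and its relative Gbp10, is uncertain.

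Promoter windows of the chromosome 3 members are shown because the cytokine responses described below differ among these 4 genes, and because the windows show where letters of the GAS, ISRE and NF-κB kinds stand. Each window covers 250 bases before to 50 bases after an annotated start (RefSeq, GRCm38.p6), on the plus strand, 5′ to 3′. Capitals mark GAAANNGAA (ISRE core) and TTCNNNGAA (GAS), read on both strands, and matches to the NF-κB motif. A second annotated start of Gbp3 had none of these motifs in its window (chr3:142560106-142560405) and is not printed.
Gbp5 (chr3:142496684-142496983): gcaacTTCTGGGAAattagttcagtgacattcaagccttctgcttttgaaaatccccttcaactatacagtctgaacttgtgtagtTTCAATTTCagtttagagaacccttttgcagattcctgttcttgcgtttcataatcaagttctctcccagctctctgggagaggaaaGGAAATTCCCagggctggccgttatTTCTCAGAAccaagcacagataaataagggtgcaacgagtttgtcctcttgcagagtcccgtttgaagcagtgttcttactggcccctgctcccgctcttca
Gbp7 (chr3:142530086-142530385): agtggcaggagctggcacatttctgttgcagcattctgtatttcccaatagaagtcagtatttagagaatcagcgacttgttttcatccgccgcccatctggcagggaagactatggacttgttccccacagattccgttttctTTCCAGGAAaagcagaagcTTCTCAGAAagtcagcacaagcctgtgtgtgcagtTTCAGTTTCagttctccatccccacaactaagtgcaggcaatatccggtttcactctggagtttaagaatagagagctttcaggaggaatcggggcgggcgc
Gbp3 (chr3:142559794-142560093): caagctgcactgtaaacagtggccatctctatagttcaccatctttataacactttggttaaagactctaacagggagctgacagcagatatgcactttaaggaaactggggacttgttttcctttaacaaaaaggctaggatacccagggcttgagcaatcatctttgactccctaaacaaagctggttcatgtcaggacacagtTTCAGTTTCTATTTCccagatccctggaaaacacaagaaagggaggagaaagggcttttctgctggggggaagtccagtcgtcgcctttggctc
Gbp2 (chr3:142620413-142620712): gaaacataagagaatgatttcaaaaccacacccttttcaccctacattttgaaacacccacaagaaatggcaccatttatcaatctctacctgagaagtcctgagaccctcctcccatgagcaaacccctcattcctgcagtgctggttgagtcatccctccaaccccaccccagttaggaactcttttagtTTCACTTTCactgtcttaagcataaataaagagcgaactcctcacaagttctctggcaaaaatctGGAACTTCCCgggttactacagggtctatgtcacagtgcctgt

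All 4 matched members held an ISRE core, against 8.56% of 32851 such windows of all genes. In Gbp3 a pair of overlapping matches began 44 and 38 bases before the start. The single matches began 58 bases before the start in Gbp2, 52 in Gbp7 and 164 in Gbp5. GAS matches were present in Gbp5, at 245 and 52 bases before the start, and in Gbp7, at 106 and 87 bases before it, against 8.3% of all windows. An NF-κB match was found in Gbp5, 77 bases before the start, and in Gbp2, beginning at base 8 after it, against 8.46% of all windows. Gbp5 was thus the only window of the 4 with letters of all 3 kinds. The whole Gbp5 window lies inside the GENCODE span given above, and the sequence at the start of that span was not searched. A match is a description of the sequence and was not tested as a binding site.

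After removal of barcodes with fewer than 200 or more than 4000 detected genes or over 12% mitochondrial counts, 7471 of 12571 cells were left. Counts are of unique molecular identifiers (UMIs), 1 per captured transcript end, so that levels of different genes can be set side by side without a correction for transcript length. Kept cells held a median of 15454 UMIs without cytokine, 7462.5 after IL-1β, 9615 after IFN-γ and 11123.5 after both. The upper gene limit alone removed 843 untreated barcodes, against 146 after IL-1β, 345 after IFN-γ and 222 after both. Of the kept cells, 8 carried a barcode that also occurred in another library.

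Endocrine cells were assigned by the share of a cell's UMIs taken by its hormone, and other cells by marker genes. There were 4902 β-cells (1179 untreated, 1158 after IL-1β, 1294 after IFN-γ and 1271 after both), in which insulin took a median of 29.5% of UMIs. The 888 α-cells numbered 89, 332, 299 and 168 in the same order and had a median glucagon share of 16.5%. The 539 δ-cells numbered 66, 165, 186 and 122, with a somatostatin share of 7.2%, and the 142 PP-cells numbered 24, 23, 51 and 44, with a pancreatic polypeptide share of 33.0%. The smaller classes were 130 endothelial cells (30, 33, 45 and 22), 66 mesenchymal cells (12, 23, 20 and 11) and 138 macrophages (32, 37, 40 and 29). The markers of endothelial cells and macrophages were distinct, and those of mesenchymal cells less so. The vascular gene Flt1 was at 2693 CPM (the gene's UMIs as a share of all UMIs of the class, on the usual CPM scale) in endothelial cells and 3.62 CPM in macrophages. The complement gene C1qb was at 4761 CPM in macrophages and 1.2 CPM in endothelial cells, and the collagen gene Col3a1 was at 2399 CPM in mesenchymal cells and 212 CPM in endothelial cells. Of the cells called mesenchymal, 80.3% held Pdgfrb, 30.3% Col1a1 and 3.03% Pdgfra, 54.5% held the endothelial marker Esam, and Spp1, listed as a ductal marker, was at 4403 CPM, whereas the endothelial genes Pecam1, Kdr and Cdh5 had no UMI. The endothelial class held Rgs5 in 26.9% and Pdgfrb in 23.1% of cells. The part of these transcripts in the Gbp levels of both classes was not tested. The mesenchymal class was the least sharply set, with 36 cells of all libraries at exactly the 3 markers required and 58 cells at 1 marker fewer. Insulin transcripts, which gauge RNA released from β-cells, made up at most 0.565% of UMIs in the classes other than β-cells. Computed for each class and library from its own insulin share, RNA carried over from β-cells would give a summed Gbp level of at most 24.6 CPM, the value for PP-cells with both cytokines.

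In untreated islets the 8 genes were close to silent in every cell type. With IFN-γ or both cytokines their summed level was higher in all 7 types, and with IL-1β it was higher in 6, since the interval of the ratio in mesenchymal cells (0.794 to 7.77) included 1. The summed level of the 8 genes in β-cells was 14.7 CPM untreated (13.1 to 16.5), 576 CPM after IL-1β (561 to 591), 1843 CPM after IFN-γ (1821 to 1865) and 4057 CPM after both (4026 to 4089). In α-cells it was 47.2, 206, 2021 and 3743 CPM in that order. In δ-cells it was 43.8, 342, 2798 and 7316 CPM. The PP-cells, few in number, lay near the other endocrine types, at 15.1, 508, 2185 and 5240 CPM. Endocrine cells thus showed a stepwise order, with both cytokines above IFN-γ and IFN-γ above IL-1β.

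The non-endocrine cells had a different shape, with ratios over untreated of at most 3.12 with IL-1β (4.37 or more in the endocrine types, although the intervals overlapped those of α- and δ-cells), and, in endothelial cells and macrophages, no higher level with the combination than with IFN-γ alone. Endothelial cells were at 63.4 CPM untreated, 198 CPM after IL-1β, 12170 CPM after IFN-γ and 12300 CPM after both. Mesenchymal cells were at 48.9, 110, 4781 and 5223 CPM, but without the upper gene limit they were at 3133 CPM with IFN-γ and 4780 CPM with both, and with types from Louvain clusters at 5080 and 6297 CPM, so that whether the combination added to IFN-γ in this class depended on how cells were selected. Macrophages were at 43.8, 129, 4718 and 3941 CPM. With both cytokines over IFN-γ alone, the ratio was 1.01 in endothelial cells (0.96 to 1.06), 1.09 in mesenchymal cells (0.974 to 1.22) and 0.835 in macrophages (0.772 to 0.904), against 2.2 in β-cells (2.17 to 2.23), 1.85 in α-cells (1.78 to 1.93) and 2.61 in δ-cells (2.51 to 2.72).

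**Figure D1:**
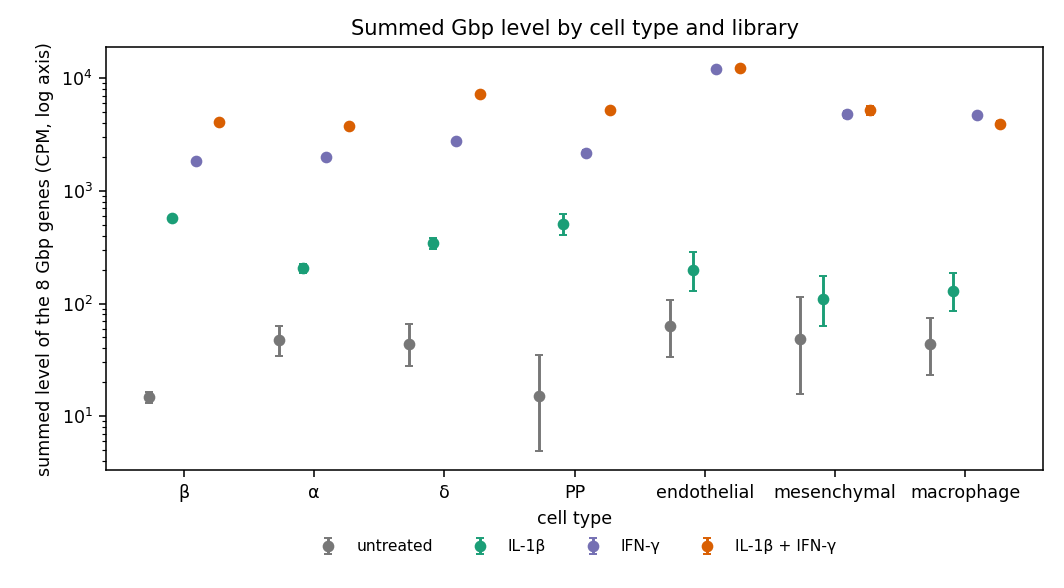
Summed level of the 8 Gbp genes in CPM on a log axis (y) for 7 cell types (x) in each of the 4 libraries. Points are levels over all cells of a type and bars are exact Poisson 95% intervals of counting error. In the 4 endocrine types the points for both cytokines lie above those for IFN-γ, whereas in endothelial and mesenchymal cells these points lie close together and in macrophages the order is turned. Without the upper gene limit the mesenchymal IFN-γ point would be at 3133 CPM and that for both at 4780 CPM.

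The order of the cell types depended on the cytokine. With IFN-γ alone, endothelial cells had the highest summed level, followed by mesenchymal cells and macrophages, whose intervals overlapped, and then δ-cells. PP- and α-cells came next, with overlapping intervals, and β-cells were lowest. With IL-1β alone the order was nearly the opposite, with β- and PP-cells highest and overlapping, then δ-cells, and then α-cells, endothelial cells, macrophages and mesenchymal cells, each of which overlapped its neighbor. With types from Louvain clusters PP-cells were at 291 CPM and δ-cells at 367 CPM, which turns their order. With both cytokines, endothelial cells were followed by δ-cells, by PP- and mesenchymal cells with overlapping intervals, and by β-cells, macrophages and α-cells, of which macrophages overlapped both neighbors. Insulin took 42.1% of the UMIs of untreated β-cells, 22% after IL-1β, 28.4% after IFN-γ and 33.5% after both, which lowers every other gene on the CPM scale. With hormone transcripts left out of the totals, β-cells with both cytokines were at 6551 CPM and PP-cells at 9191 CPM, so that β-cells then stood above mesenchymal cells (5228 CPM), α-cells (4647 CPM) and macrophages (3947 CPM). In the same setting with IFN-γ, β-cells were at 2807 CPM and α-cells at 2478 CPM, which turns their order. PP-cells also passed δ-cells in that setting, at 3746 against 3557 CPM with IFN-γ and at 9191 against 8762 CPM with both. Endothelial cells kept the highest level in both libraries.

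A fold of at least 4 over untreated cells, among genes with at least 20 UMIs in the 2 libraries compared, was used to count members by size. In β-cells all 8 genes passed under each single cytokine and under both, where 4.31%, 1.7% and 4.94% of all genes tested did. With hormone transcripts left out of the totals, Gbp7 with IL-1β was less than 4-fold higher, as given below. In α-cells 5 of the 7 genes with enough UMIs passed with IL-1β, 7 of 8 after IFN-γ and 8 of 8 after both, against 2.69%, 1.32% and 3.79% of all genes. With every cell thinned to 4000 UMIs the count in α-cells with IL-1β was 2. Gbp3 and Gbp7 did not pass with IL-1β. Gbp5 had no untreated UMI, and after IFN-γ it was 3.55-fold higher against a floor of 3 UMIs (lower limit of the counting interval 2.7). In δ-cells the counts were 5 of 7, 8 of 8 and 8 of 8, against 2.73%, 1.46% and 5.03%, and Gbp7 and Gbp8 were the members that did not pass with IL-1β. In PP-cells only Gbp2 had enough UMIs with IL-1β, and it passed, as did 6 of 6 genes with IFN-γ and 8 of 8 after both, against 3.77%, 1.92% and 5.95% of all genes. Thinned, the PP-cell counts were 0 with IL-1β and 3 with IFN-γ.

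In endothelial cells no member had 20 UMIs in the untreated and IL-1β libraries together, so none could be counted there (0.611% of all genes passed). All 7 testable members passed with IFN-γ and all 6 after both, against 4.1% and 4.52%. In mesenchymal cells none could be counted with IL-1β (2.58% of all genes passed), 5 of 6 passed with IFN-γ and 5 of 5 after both, against 4.25% and 6.17%. In macrophages none could be counted with IL-1β (0.833%), and 7 of 7 passed with each of the other treatments, against 2.45% and 2.82%. Thinned, 4 passed in macrophages with either treatment and 2 in mesenchymal cells with both. A member that is silent in untreated cells reaches 20 UMIs only if it is high in the treated library, so these counts describe the members that could be measured and not the whole family. The median log2 fold of the 8 members in β-cells was 6.96 after IL-1β, 7.30 after IFN-γ and 9.42 after both, while that of all genes tested was 0.34, 0.30 and -0.00355. Over all types and treatments the median of all genes lay between -0.20 and 0.37.

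Gbp2, a member that carries a C-terminal lipid anchor, was the most abundant of the 8 genes in every cell type with IFN-γ and with both cytokines. In β-cells its level was 1.56 CPM untreated, 286 CPM after IL-1β, 834 CPM after IFN-γ and 1828 CPM after both. Over untreated cells that was 183-fold after IL-1β (129 to 270), 535-fold after IFN-γ (377 to 788) and 1170-fold after both (825 to 1720). In α-cells no Gbp2 UMI was found in 89 untreated cells, and its level was 41.9 CPM after IL-1β, 686 CPM after IFN-γ and 1569 CPM after both. Against a floor of 3 UMIs that is 12.7-fold, 208-fold and 477-fold higher, with lower limits of the counting interval of 10.2, 169 and 387. In endothelial cells, where its level after IFN-γ was 9.22 times that of β-cells (8.81 to 9.65), Gbp2 was at 9.75, 65.8, 7692 and 8200 CPM, and every one of the 45 cells with IFN-γ and 22 cells with both had a Gbp2 UMI. In macrophages it was at 20.2, 14.3, 3137 and 2619 CPM, so that IL-1β alone left it within the counting interval of the untreated level (ratio 0.71, 0.115 to 3.32).

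Gbp3 followed the same order at a lower level. In β-cells it was at 2.21, 63.8, 173 and 455 CPM in the 4 libraries (untreated, IL-1β alone, IFN-γ alone, both). In δ-cells it was at 3.65, 55.65, 430 and 1245 CPM, the highest Gbp3 level with both cytokines among the 7 types, although its interval (1169 to 1325) overlapped those of PP-cells (1032 to 1236) and endothelial cells (902 to 1186). With hormones left out of the totals PP-cells were higher, at 1982 CPM against 1491 CPM, and with types from Louvain clusters too, at 1143 CPM against 1022 CPM. With IFN-γ alone endothelial cells were highest, at 957 CPM, and they stayed at 1037 CPM after both. In α-cells the untreated value of 13.2 CPM rested on 12 UMIs, 11 of which came from a single cell, and the IL-1β value of 34.7 CPM was 2.64-fold higher (1.43 to 5.32). That cell held 21 of the 43 Gbp UMIs of untreated α-cells, and without it the summed untreated level was 24.55 CPM, which moved the ratio of the sum with IL-1β from 4.37 to 8.39 and brought the count of members past 4-fold after IL-1β from 5 to 6.

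Gbp4 was nearly absent before treatment. In 1179 untreated β-cells it had 3 UMIs (0.151 CPM), against 54.4 CPM after IL-1β, 184 CPM after IFN-γ and 583 CPM after both, and the ratio of the last to untreated was 3860 with a counting interval of 1320 to 18700. With both cytokines Gbp4 was the second most abundant member in β-cells, and its level was 3.17-fold that with IFN-γ alone (3.03 to 3.31). In δ-cells it was at 1.83, 59.2, 407 and 1215 CPM. Endothelial cells again departed from the endocrine pattern. They had no Gbp4 UMI untreated, 36.6 CPM after IL-1β, 1629 CPM after IFN-γ and 1398 CPM after both, so that the combination was lower than IFN-γ alone (ratio 0.859, 0.738 to 0.997).

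Gbp5, which promotes the assembly of the NLRP3 inflammasome, was the member most dependent on the presence of both cytokines in endocrine cells. In β-cells it was at 0.201 CPM untreated, 55.1 CPM after IL-1β, 24.3 CPM after IFN-γ and 327 CPM after both. It was the only one of the 8 genes that was higher with IL-1β than with IFN-γ in β-cells, by 2.26-fold, and this order held under all 9 alternative settings that scaled or selected cells differently (2.06 to 2.31). In α-cells the order was the other way, with 4.96 CPM after IL-1β, 11.7 CPM after IFN-γ and 159 CPM after both, and no UMI in untreated cells. In δ-cells it was at 0, 13.0, 35.1 and 398 CPM. The step from IFN-γ to both cytokines was thus 13.4-fold in β-cells (12.1 to 15.0), 13.6-fold in α-cells (9.18 to 20.9) and 11.3-fold in δ-cells (8.32 to 15.7). Endothelial cells reached a high Gbp5 level with IFN-γ alone, 581 CPM, which was 23.9 times that of β-cells in the same library (19.7 to 28.8), and were at 528 CPM after both.

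Gbp6 and Gbp9 were the least abundant members in β-cells with both cytokines. Gbp6 was at 0.352, 23.0, 68.7 and 144 CPM in β-cells, and at 0, 24.9, 147 and 343 CPM in δ-cells. It had few counts outside the endocrine types, with 52 UMIs in endothelial cells with IFN-γ (181 CPM) and 18 after both (88.0 CPM, ratio 0.486, 0.268 to 0.845). Gbp9 was at 0.151, 28.3, 42.6 and 145 CPM in β-cells, so that IL-1β alone brought it closer to the IFN-γ level than for Gbp2, Gbp3, Gbp4, Gbp6, Gbp7 or Gbp8. In δ-cells Gbp9 had no untreated UMI and was at 60.4, 122 and 347 CPM with the 3 treatments. In endothelial cells it was at 362 CPM after IFN-γ and 357 CPM after both.

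Gbp7, which was the most abundant member before treatment in β- and α-cells, behaved unlike the other 7 genes. In β-cells it was at 8.71 CPM untreated, 37.3 CPM after IL-1β, 421 CPM after IFN-γ and 372 CPM after both. It made up 59.0% of all Gbp UMIs in untreated β-cells (53.2 to 64.7), and 22.9% after IFN-γ but 9.18% after both. With IL-1β it was 4.29-fold higher than untreated in β-cells (3.57 to 5.17), which became less than 4-fold with hormone transcripts left out of the totals (16.6 against 52.2 CPM). In α-cells it was at 28.5 CPM untreated and 22.1 CPM after IL-1β (ratio 0.774, 0.472 to 1.3), and since 8 of the 26 untreated UMIs came from the cell described above, leaving 18 without it, no direction can be read. In δ-cells the ratio was 1.1 (0.477 to 2.69). Gbp7 was the only member that was lower with both cytokines than with IFN-γ alone in β-cells (ratio 0.883, 0.852 to 0.916), α-cells (0.779, 0.705 to 0.86) and δ-cells (0.823, 0.728 to 0.93). Gbp7 was also lower with both than with IFN-γ in mesenchymal cells (0.589, 0.36 to 0.932) and macrophages (0.687, 0.511 to 0.917), where Gbp2 was lower as well (0.835, 0.757 to 0.92), and in these 5 types the Gbp7 ratio stayed below 1 under all 9 alternatives. Its range in mesenchymal cells, on 25 UMIs with both, was 0.583 to 0.899, the highest with types from Louvain clusters. In endothelial cells the ratio was 0.924 (0.742 to 1.15) and in PP-cells 1.11 (0.897 to 1.38), both with intervals that included 1.

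Gbp8 was the member most restricted by cell type. In β-cells it was at 1.41, 28.3, 94.5 and 203 CPM, and in δ-cells at 14.6, 48.55, 176 and 586 CPM. Endothelial cells, which had the highest levels of Gbp2 and Gbp5 under IFN-γ and under both cytokines, had only 5 Gbp8 UMIs with IFN-γ (17.4 CPM) and none in the other 3 libraries, where 3 UMIs would be at 14.6 CPM untreated, 21.9 CPM after IL-1β and 14.7 CPM after both. Mesenchymal cells had 2 Gbp8 UMIs with IFN-γ and 1 after both. Macrophages did express it, with 133 CPM after IFN-γ and 109 CPM after both. As a share of the Gbp UMIs, Gbp8 after IFN-γ was 0.143% in endothelial cells, 0.242% in mesenchymal cells, 1.47% in PP-cells, 2.81% in macrophages, 2.87% in α-cells, 5.13% in β-cells and 6.31% in δ-cells, so that it did not separate endocrine from other cells. With both cytokines the Gbp8 level of endothelial cells was at most 0.0889 times that of β-cells, and that of δ-cells was 2.88 times it (2.61 to 3.18).

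**Figure D2:**
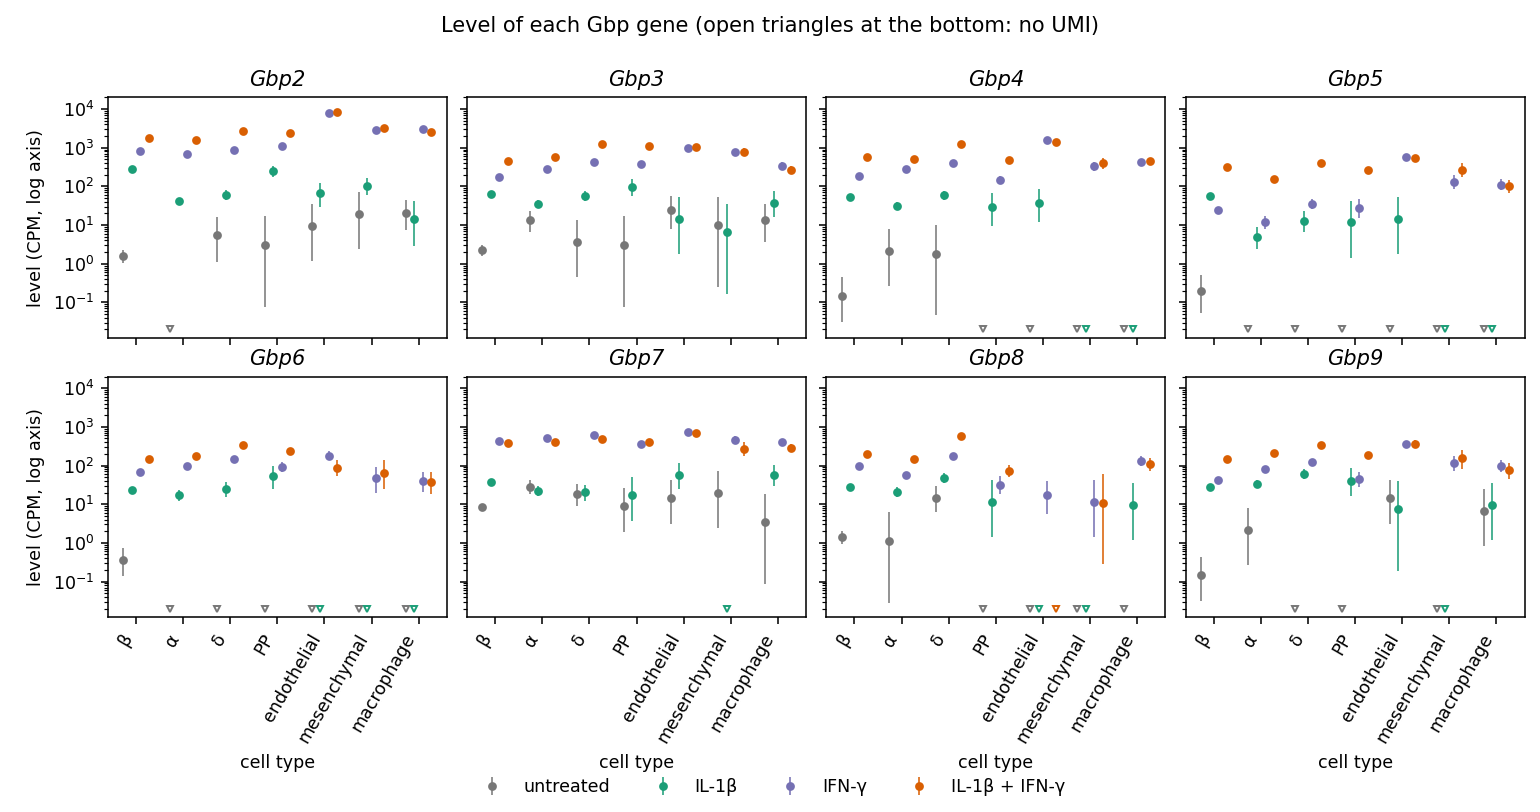
Level of each of the 8 Gbp genes in CPM on a log axis (y) by cell type (x) and library (color), with exact Poisson 95% intervals of counting error. Open triangles at the bottom edge mark groups with no UMI. Gbp5 in β-cells has its IL-1β point above its IFN-γ point, Gbp7 has the combined library at or below IFN-γ in most types, and Gbp8 is nearly empty in endothelial and mesenchymal cells.

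The make-up of the Gbp transcripts does not depend on the total of the cell, and with IFN-γ or both cytokines the share of Gbp2 separated endocrine from other cells. With IL-1β it did not, at 49.65% in β-cells, 20.35% in α-cells, 33.3% in endothelial cells, 11.1% in macrophages and 94.1% in mesenchymal cells, the last 3 on 27 or fewer Gbp UMIs. With IFN-γ, Gbp2 was 45.3% of the Gbp UMIs in β-cells (44.7 to 45.9), 33.95% in α-cells (32.6 to 35.3), 31.4% in δ-cells (29.9 to 32.9) and 50.3% in PP-cells (47.3 to 53.3). In the non-endocrine types it was 63.2% in endothelial cells (61.6 to 64.8), 61.1% in mesenchymal cells (57.7 to 64.5) and 66.5% in macrophages (64.1 to 68.8). Gbp7 had the opposite lean with IFN-γ, at 22.9% in β-cells, 25.25% in α-cells, 21.5% in δ-cells and 16.3% in PP-cells, against 6.18% in endothelial cells, 9.69% in mesenchymal cells and 8.7% in macrophages. Adding IL-1β to IFN-γ changed the make-up in endocrine cells. Gbp7 was then 9.18% in β-cells, 10.6% in α-cells and 6.77% in δ-cells, while Gbp5 went from 1.32% to 8.06% in β-cells, from 0.579% to 4.25% in α-cells and from 1.26% to 5.44% in δ-cells. In endothelial cells Gbp5 was at 4.78% after IFN-γ and 4.29% after both, with overlapping intervals (4.09 to 5.54 and 3.53 to 5.16), Gbp2 at 63.2% and 66.65%, and Gbp6 at 1.49% (1.11 to 1.95) and 0.715% (0.424 to 1.13).

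**Figure D3:**
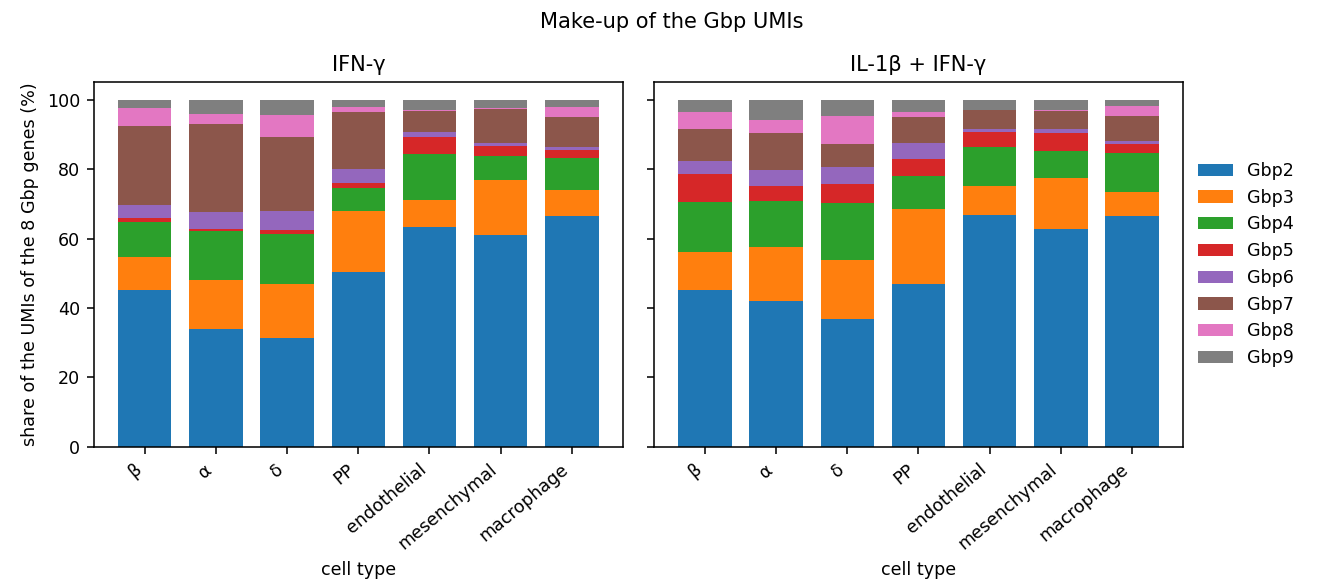
Share of the UMIs of the 8 Gbp genes taken by each gene (y, percent, bars add up to 100) by cell type (x) in the IFN-γ library (left) and in the library with both cytokines (right). Gbp2 takes over 60% of the bar in the 3 non-endocrine types, and the Gbp7 share of the endocrine types is smaller on the right.

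Whether the cytokines together gave more than the sum of their separate levels was asked for each gene as the level with both over the sum of the 2 single-cytokine levels. For the summed members this ratio was 1.68 in β-cells (1.65 to 1.70), 1.68 in α-cells (1.62 to 1.75), 2.33 in δ-cells (2.24 to 2.43) and 1.95 in PP-cells (1.81 to 2.1). It was 0.995 in endothelial cells (0.945 to 1.05), 1.07 in mesenchymal cells (0.955 to 1.19) and 0.813 in macrophages (0.752 to 0.879). In the 4 endocrine types the combination thus exceeded the sum beyond counting error, and in endothelial cells and macrophages it did not. In mesenchymal cells the interval included 1, but the levels behind it depended on the upper gene limit, as given above. Among genes at least 4-fold higher with both cytokines, the median ratio was 0.921 in β-cells, where 42.3% of 605 genes were above 1. In α-cells it was 1.04, with 54.9% of 319 genes above 1, and in δ-cells 1.30, with 68.3% of 357 genes. The α- and δ-cell medians covered 319 of the 320 and 357 of the 360 genes that passed.

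Gbp5 had the largest ratio of the members, 4.12 in β-cells (3.83 to 4.43), 9.56 in α-cells (6.81 to 13.4) and 8.26 in δ-cells (6.21 to 11). Next in β-cells was Gbp4 at 2.45 (2.35 to 2.55), and Gbp2, Gbp3, Gbp6, Gbp8 and Gbp9 lay between 1.57 and 2.05. Gbp7 alone was below 1, at 0.812 in β-cells (0.783 to 0.841), 0.747 in α-cells (0.677 to 0.823) and 0.797 in δ-cells (0.707 to 0.898). In endothelial cells Gbp5 was at 0.886 (0.696 to 1.13). In macrophages it was at 0.909 (0.553 to 1.49), and in mesenchymal cells, with 25 UMIs with both, at 2.05 (1.16 to 3.61).

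**Figure D4:**
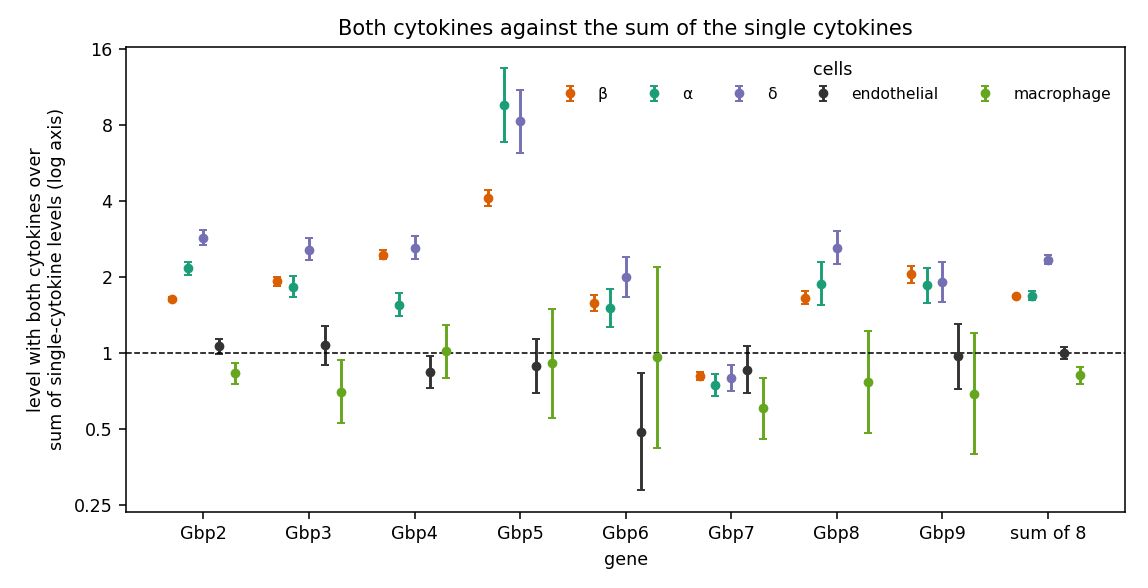
Level with both cytokines divided by the sum of the levels with each cytokine alone (y, log axis) for the 8 Gbp genes and their sum (x) in 5 cell types. Bars are 95% intervals of counting error and the dashed line marks a ratio of 1. In β-, α- and δ-cells every gene except Gbp7 lies above the line, and Gbp5 is highest. No gene of endothelial cells or macrophages has its interval above the line.

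Receptors and signaling genes were read in the same cells. Il1r1, the signaling receptor of IL-1β, was at 239 CPM in untreated β-cells and 258 CPM in untreated α-cells, at 95 CPM in δ-cells and at 39.0 CPM in endothelial cells. In untreated mesenchymal cells it was at 147 CPM on 15 UMIs. In macrophages it had no UMI untreated, with IL-1β or with both, and 2 UMIs with IFN-γ. Its partner Il1rap had 18 UMIs in untreated β-cells (0.906 CPM) and none in endothelial cells in any library. Nfkbia, an inhibitor and target of NF-κB, was at 49.1, 479, 50.2 and 620 CPM in β-cells in the 4 libraries (untreated, IL-1β alone, IFN-γ alone, both). In macrophages, where IL-1β was followed by a summed Gbp ratio of only 2.95 (1.47 to 6.23), Nfkbia was at 108, 301, 133 and 143 CPM. In endothelial cells it was at 644, 1280, 759 and 1390 CPM. The summed Gbp level of endothelial cells was 63.4 CPM untreated and 198 CPM with IL-1β. The part of these receptor and signaling genes in the Gbp levels was not tested.

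The IFN-γ receptor chain Ifngr2 was higher in endocrine cells wherever IL-1β was present. In β-cells it was at 5.33 CPM untreated, 57.6 CPM after IL-1β, 5.13 CPM after IFN-γ and 51.1 CPM after both. In α-cells it was at 5.49, 74.8, 7.93 and 83.9 CPM, and in δ-cells at 20.1, 71.0, 8.97 and 123 CPM. In PP-cells it was at 6.02, 111, 16 and 63.1 CPM. Endothelial cells, which did not show more Gbp with both cytokines, had 146, 132, 73.1 and 68.5 CPM, and macrophages 108, 115, 115 and 109 CPM. Mesenchymal cells had 235, 155, 104 and 142 CPM, on 13 to 24 UMIs. In the 4 endocrine types a higher Ifngr2 level with IL-1β thus stood beside a combination above the sum, and its part in that result was not tested. The other chain, Ifngr1, was at 7.3, 26.6, 11.5 and 16.3 CPM in β-cells, with a ratio of both over untreated of 2.23 (1.81 to 2.75). In α-cells that ratio was 0.377 (0.135 to 0.98) and in δ-cells 0.385 (0.15 to 0.926), in the other direction. Irf1 was at 40.6, 206 and 329 CPM in β-cells under the 3 treatments, the last 16.5-fold above untreated (14.9 to 18.3), and in δ-cells at 51.1, 50.9, 316 and 875 CPM in the 4 libraries, and like most Gbp genes was higher with both.

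Other genes of the pathway were counted in β-cells with both cytokines against the same background of 4.94% (4.31% with IL-1β alone and 1.7% with IFN-γ alone). Of the immunity-related GTPases, a second family of IFN-γ-inducible GTPases that act on the same vacuoles, 12 of 12 in the tables passed 4-fold after both and 11 of 11 testable ones with IFN-γ, and 0 of 3 with IL-1β, where 9 of the 12 had too few UMIs to be counted and 4.31% of all genes passed. Iigp1 had the largest ratio of the 7 with an untreated UMI, at 0.101 CPM untreated, 1.22 CPM after IL-1β, 1150 CPM after IFN-γ and 646 CPM after both. For 9930111J21Rik1, which had 24 UMIs with both and none untreated, only a ratio against the floor of 3 UMIs can be given, 10.2-fold. The same holds for Tgtp1, Tgtp2, Gm4841 and F830016B08Rik, so these 5 cannot be ranked. Gbp10, a relative of Gbp6, was at 0, 1.43, 21 and 43.2 CPM in β-cells and had at most 4 UMIs in any library of endothelial cells, mesenchymal cells or macrophages. Gbp2b had 29 UMIs in β-cells with IFN-γ and 5 after both.

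Of the 13 genes of IFN-γ signaling, 8 passed in β-cells with both (median log2 fold 2.71), from Socs1, a feedback inhibitor, at 0.654, 8.77, 37.2 and 100 CPM, down to the kinase gene Jak1 with a ratio of 1.86 (1.76 to 1.98), and 4 of 13 passed with IL-1β and 6 after IFN-γ. Of 17 genes of IL-1 and NF-κB signaling, 10 passed with both (median 2.47), 9 of 16 after IL-1β and 0 of 16 after IFN-γ. They ran from Tnfaip3, a brake on NF-κB, with a ratio of 92.4 (62.4 to 143), to Il1r1 itself, which was lower with both at 94.4 CPM (ratio 0.394, 0.372 to 0.418). Of 6 testable inflammasome genes, 4 passed (median 3.18). Casp4, which encodes the caspase that binds bacterial lipopolysaccharide, was at 0.0503, 11.6, 0.281 and 20.4 CPM, whereas Pycard, the adaptor, was at 12.5, 8.67, 14.5 and 14.0 CPM. Genes whose products handle Gbp proteins were too few to be set against the background share of 4.94% with both. None of 10 genes of the ATG conjugation machinery passed (median 0.20), from Gabarapl1 with a ratio of 1.59 (1.46 to 1.72) to Gabarapl2 with 0.796 (0.757 to 0.837). None of 5 prenylation genes did either (median -0.26), from Pggt1b with 1.85 (1.45 to 2.35) to Fnta with 0.551 (0.47 to 0.644).

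Single β-cells differed widely in how many members they held. Before treatment 80.1% of β-cells had no UMI of the 8 genes (77.7 to 82.3), and after IL-1β 232 of 1158 had none. The share was 7.96% after IFN-γ and 3.78% after both. Because untreated cells were the deepest, each cell was also thinned to 4000 UMIs, which left out 41, 75, 53 and 31 β-cells in the same order. The share with none was then 94.6%, 26.2%, 8.38% and 4.11%. The median β-cell held 0, 3, 18 and 48 Gbp UMIs at full depth. All 8 genes together were detected in 32.1% of β-cells with both cytokines, 1.78% after IFN-γ and 0.432% after IL-1β, and after thinning in 3.87% after both and in none with either cytokine alone. In δ-cells with both, 29.5% of thinned cells held all 8. Even with both cytokines the response was uneven, since 48 of 1271 β-cells held no Gbp UMI while the highest held 198 at full depth. Of the 1240 thinned β-cells with both, 51 held none and the highest held 89.

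**Figure D5:**
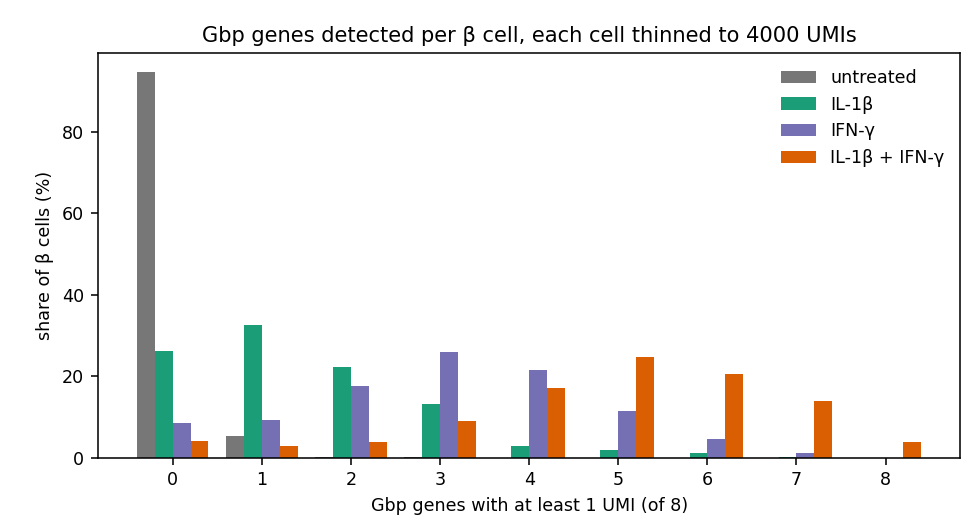
Share of β-cells (y, percent) by the number of the 8 Gbp genes with at least 1 UMI (x), in each library, with every cell thinned to 4000 UMIs. Untreated cells stand at 0 (94.6%), cells with IL-1β are spread from 0 to 3, and cells with both cytokines have their highest bar at 5 genes (24.6%).

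In β-cells with both cytokines the members were found together in the same cells. Among thinned β-cells with both cytokines, Gbp4 was detected in 77.9% of the 1099 cells with a Gbp2 UMI (75.3 to 80.3) and in 26.2% of the 141 cells without (19.2 to 34.3). The corresponding shares for Gbp5 were 68.9% and 23.4%. For Gbp7 they were closer, at 68.5% and 46.1%. In β-cells with IL-1β alone, Gbp3 was in 27.4% of cells with a Gbp2 UMI (23.7 to 31.3) and 12.6% without (9.89 to 15.7). The Gbp7 shares there overlapped, at 13.6% (10.9 to 16.8) and 11.5% (8.89 to 14.5). In α-cells with both cytokines only 10 thinned cells had no Gbp2 UMI, and the intervals overlapped for every member. In each comparison the cells are of 1 library and not replicates. The share with a Gbp2 UMI in untreated β-cells thinned in the same way was 0.791%.

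The Gbp level also varied with other genes that divide β-cells. β-cells with a UMI of Nos2, the inducible nitric oxide synthase, had a summed Gbp level of 4552 CPM after both cytokines (900 cells), against 2568 CPM in the 371 cells without. With IL-1β these levels were 830 CPM (331 cells) and 457 CPM (827 cells), and median depth was 9101 UMIs with Nos2 and 7834 without. With both cytokines these depths were 12762.5 and 10483 UMIs. The part of depth in these differences was not tested. β-cells with at least 10 UMIs per 10000 of the heat shock gene Hspa1a had less Gbp, at 2138 CPM in 81 cells against 4176 CPM in 1190 cells with both cytokines, and 523 CPM in 80 cells against 1913 CPM in 1214 cells with IFN-γ. With IL-1β the levels were 159.5 CPM in 104 cells and 607 CPM in 1054 cells. Median depth in these pairs was 11800 against 12195.5 UMIs with both, 8972.5 against 11090 with IFN-γ and 6353.5 against 8408.5 with IL-1β. The part of depth was not tested here either.

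Over 26 groups of cell type and library with at least 20 cells, the genes outside the family whose log2 levels followed the summed Gbp level most closely were Parp14 (Pearson r 0.936), Parp12 (0.934), Socs1 (0.928), Irf1 (0.924) and Ifit1 (0.922), among 10833 genes compared. With log2(CPM + 10) in place of log2(CPM + 1) the order of these genes changed, from Irf1 (0.939) down to Socs1 (0.916). Parp14 and Parp12 encode ADP-ribosyltransferases, and Ifit1 encodes an RNA-binding antiviral protein. Within the family Gbp3 and Gbp9 were most alike (0.962), followed by Gbp4 and Gbp5 (0.958). Gbp8 was least like the others, with r between 0.601 with Gbp2 and 0.782 with Gbp6. The groups share libraries and depth, so these values are a description only.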

How the data were processed

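Islet cells of 4 libraries (10x Genomics, 1 per condition) were analyzed. The deposited values are raw UMI counts per gene and barcode, made by the authors with Cell Ranger 3.0.0 and the mm10 genome according to the submitters' processing notes. The chemistry is given as version 2 in one source and version 3 in another and bears on no step here. Per the files, 3486, 2911, 3694 and 2480 barcodes held 50731370, 20056630, 31209339 and 25716645 UMIs (untreated, IL-1β, IFN-γ, both). Barcodes were kept with 200 to 4000 genes detected and mitochondrial counts of 12% or less. In the main analysis no doublet caller was used beyond the upper gene limit.

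β-, α-, δ- and PP-cells were called where Ins1 and Ins2, Gcg, Sst or Ppy took at least 4%, 3%, 1% or 10% of UMIs. Endothelial cells, mesenchymal cells and macrophages needed 5 of 10, 3 of 10 and 6 of 12 marker genes. Counts were summed per type and library and divided by the summed totals (CPM). Levels have exact Poisson intervals, shares exact binomial (Clopper-Pearson) intervals and ratios of levels intervals from the exact binomial split of the UMIs, all at 95%. The interval of the level with both over the sum of the single levels is approximate. A group with 0 UMIs was set to a floor of 3 UMIs for ratios, and such a ratio is not a lower limit of counting error. Folds of at least 4 were counted among genes with at least 20 UMIs in the libraries compared together. To compare shares, cells were thinned to 4000 UMIs. The code was tested on simulated data.

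The 8 members and all gene lists were chosen with earlier results of these data known. Named were the 8 members, Ifngr1, Ifngr2, Irf1, Il1r1, Il1rap and Nfkbia, the genes with the largest and smallest ratio of each other list, and the 5 genes most like the summed members on log2(CPM + 1) with at least 200 UMIs in those groups. Nos2, Hspa1a and Gbp2b fall outside that rule and were chosen with their values seen. One gene that the rule names is not reported here. The lists were other GBP genes, immunity-related GTPases, IFN-γ signaling, IL-1 and NF-κB signaling, inflammasome, ATG conjugation and prenylation. Gene positions came from GENCODE M21, which matched 30934 of 31053 identifiers, and promoter windows from RefSeq.

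Alternatives were a mitochondrial limit of 20%, lifting the upper gene limit, Louvain clusters (30 components, 20 neighbors, resolution 2.0, 26 clusters), hormone thresholds 1.5 times higher, hormones left out of totals, means over cells, thinning, removal of Scrublet doublets (106 cells, 1.42%), at least 2000 UMIs per cell, and folds of 2 and 8. Python 3.11.15, numpy 2.4.6, scipy 1.17.1, pandas 2.3.3, scanpy 1.11.5, igraph 0.11.9, scikit-learn 1.9.0 and matplotlib 3.10.9 were used.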

Additional observations from a re-analysis of the deposited data

Results flagged for a closer look

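Some members had opposite directions in different cell types when the library with both cytokines was set against IFN-γ alone, and these differences were not tested. The summed level of the 8 genes had a ratio of 0.835 in macrophages, where it was below 1 under all 9 alternatives (0.791 to 0.862), against ratios above 1 in β-, α-, δ- and PP-cells. Gbp2 alone also had a ratio of 0.835 in macrophages, against 2.19, 2.29, 3.06 and 2.24 in β-, α-, δ- and PP-cells. In endothelial cells the ratio was 0.859 for Gbp4, against 3.17 in β-cells. For Gbp6 it was 0.486 in endothelial cells, resting on 18 UMIs with both cytokines and 52 after IFN-γ, against 2.1 in β-cells.

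Barcodes that the cell filters removed also held Gbp transcripts above the untreated level. In barcodes with more than 4000 detected genes the summed level was 18.3 CPM untreated, 273.4 CPM after IL-1β, 2722 CPM after IFN-γ and 4727 CPM after both. In barcodes with over 12% mitochondrial counts it was 17.1, 330.0, 1528 and 3854 CPM in the same order.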

How the results depend on the processing

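Each condition was 1 library of pooled islets, so spread between animals and libraries was not measured, and depth limits the small classes, where several members had fewer than 20 UMIs. No paired analysis was possible because each group had 1 sample. Of 234 counts of members past 4-fold under alternatives, 225 stayed within 1.5 times the reported count. Thinned to 4000 UMIs, the count was 2 in α-cells and 0 in PP-cells with IL-1β, 3 in PP-cells and 4 in macrophages with IFN-γ, and 2 in mesenchymal cells and 4 in macrophages with both, where fewer cells and UMIs were left. With Louvain types, it was 0 in PP-cells and 1 in mesenchymal cells with IL-1β. Without the upper gene limit, it was 1 in endothelial cells with IL-1β. The level with both over the sum of the single-cytokine levels became 1.81 in β-cells with hormones left out of totals, 1.62 in α-cells when thinned, and in δ-cells 2.21 with Louvain types, 2.21 with hormones left out, 2.46 as a mean over cells and 2.43 when thinned. For these the cause was not tested. With both over IFN-γ alone, the endothelial sum was at 1.01 but below 1 in 2 of 9 settings. Endothelial Gbp7, at 0.924 in that comparison, was at 1.02 when thinned. Of 2277 levels, 121 moved by over 1.5 times. Among 252 shares, 93 moved and 159 stayed the same. The summed level moved to 291 CPM in PP-cells with IL-1β with Louvain types, to 3133 CPM in mesenchymal cells with IFN-γ without the gene limit, and, when thinned, to 0.457 times its value in untreated macrophages and 0.484 times (62.5 CPM) in those with IL-1β. With hormones left out it was 1.91 times as high in untreated β-cells, 1.52 times with IFN-γ and 1.61 times with both. Leaving out 1 untreated α-cell was chosen after seeing the data.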

Other observations

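Cells outside the 7 types also differed in their summed Gbp level. In ductal cells, which numbered 10, 12, 22 and 6 in the 4 libraries (untreated, IL-1β alone, IFN-γ alone, both), it was 0, 11.6, 6406 and 7306 CPM. In acinar cells, which make digestive enzymes and numbered 8, 15, 21 and 12, it was 0, 21.4, 630.1 and 2264 CPM. In cells with more than 1 hormone it was 11.3, 426, 2213 and 5132 CPM, in 17, 131, 46 and 68 cells. Endocrine cells that also held markers of other types were at 26.6, 316, 1687 and 4515 CPM. Cells that met no definition were at 23.4, 339, 2604 and 6038 CPM. Ductal cells held 92386 UMIs of all genes untreated and 86201 with IL-1β, and acinar cells 101670 and 93461. Their Gbp levels in these libraries therefore rest on few or no Gbp UMIs. RNA carried over from β-cells was not computed for ductal or acinar cells.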
